A study of Mus musculus with 6 samples.

Results

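Autophagy is the route by which a cell wraps part of its cytoplasm in a double membrane, the autophagosome, and delivers it to the lysosome. Mitophagy is the same route applied to mitochondria. The 37 genes described here encode the core machinery of both, from the kinase that starts the process to the receptors that pick the cargo. They were chosen by name, and all 37 occur once each among the 56980 genes of the deposited table. Fold changes or ranges are given for every one, and all 37 passed the filter on low counts that left 17735 genes for testing.

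Poly(A) RNA was sequenced from ovaries of ICR mice in 2 groups. FNZ ovaries (replicates 2, 3 and 5) came from animals given 30 mg/kg of FNZ by daily injection into the peritoneum over 7 days. FNZ is named in the labels by these letters alone, was dissolved in polyethylene glycol and saline, and belongs to a study whose title speaks of blocking T-type calcium channels. Control ovaries (replicates 2, 3 and 4) came from animals given the injection solvent. No age or genotype is given, and the labels speak of 3 dissected ovaries per group without saying whether these came from separate mice. The p-values below therefore measure the spread between these samples, which may be technical.

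The pathway runs in order. A kinase complex around ULK1 or ULK2 starts a membrane sheet, and a lipid kinase complex around Beclin 1 marks that sheet with phosphatidylinositol 3-phosphate. WIPI proteins read the mark, while ATG9 vesicles and the ATG2 lipid channels supply membrane. Small ubiquitin-like proteins of the ATG8 family (LC3 and GABARAP proteins) are trimmed by ATG4 proteases. ATG7, ATG3 and the complex of ATG12, ATG5 and ATG16L1 then join them to another membrane lipid. Receptors such as p62 and NBR1 bind both cargo and ATG8 proteins, and PINK1, BNIP3, NIX and FUNDC1 act on mitochondria. In the ovary, autophagy is known for its part in the survival of germ cells around birth and in the clearance of granulosa and luteal cells. Much of it is controlled on proteins and not on transcripts, so a transcript level is not a measure of autophagic activity.

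The deposited expected counts summed to between 19333493 and 23406628 per library. Counts are given below as CPM, counts scaled to a common library size (TMM), and they are the values that were tested. TPM, which the authors also divided by transcript length, is used wherever one gene is set beside another. FNZ replicate 3 stands apart from the other FNZ libraries in how its counts depend on gene length. Across the tested genes, the deviation of a gene from its mean over libraries had a Spearman correlation with length of -0.46, 0.08 and -0.30 in FNZ replicates 2, 3 and 5, against 0.27, 0.26 and 0.32 in control replicates 2, 3 and 4. Values with a correction for length are therefore given for each gene described library by library whose log2 fold change it moved by over 1.5 times, and values without FNZ replicate 3 where they change a call.

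As a set, the 37 genes sat close to control levels. The median log2 fold change was 0.03, beside 0.01 for all genes tested, with 22 genes above 0 and 15 below it. The single values ran from -0.55 for Atg2b to 0.53 for Bnip3. With edgeR's quasi-likelihood test and Benjamini-Hochberg adjustment over all tested genes, 0 of the 37 were called higher and 0 lower, where the whole table also gave 0% and 0%. Their adjusted p-values ran from 0.131 to 0.97. At an unadjusted p under 0.05, edgeR had 4 members higher (10.8%) and 3 lower (8.11%), beside 12% and 11.2% of all tested genes. DESeq2 called 2 higher and 2 lower (5.41% each), beside 4.54% and 5.57% of the genes to which it gave an adjusted p. These shares lay near those of all genes, and what follows describes single genes. The ovary is a mixture of cell types, so in these bulk samples fewer cells of a type and less RNA per cell cannot be told apart.

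The 4 genes that DESeq2 called lie at different steps. Gabarapl2, an ATG8 family member, and Bnip3, a mitophagy receptor, were higher in FNZ ovaries. Ulk1, the initiating kinase, and Atg2b, a lipid channel, were lower. Of these, 0 passed edgeR. Parts of Gabarapl2 and Bnip3 also occur in the processed pseudogenes Gm3724 and Gm16439, which held 0% and 0.478% of the counts of each pair. Exons of Bnip3 and Atg2b overlap Gm45507 and Gskip on the opposite strand, and since the strand setting is unknown those reads cannot be told apart. In GENCODE M21 on GRCm38, Gabarapl2 spans chr8:111940703-111953612, Bnip3 chr7:138890836-138909519, Ulk1 chr5:110784488-110810097 and Atg2b chr12:105616136-105685211. Their upstream sequences are shown because the E-box CACGTG is the core of the site bound by TFEB and TFE3, the factors known for switching on autophagy and lysosome genes, and ACGTG is part of the site bound by hypoxia-inducible factors, for which Bnip3 is a known target. Each line gives the 250 bases before the start site from RefSeq on GRCm38.p6, on the strand of the gene. In each line ACGTG or its reverse complement CACGT is in capitals.
Gabarapl2, chr8:111940453-111940702, plus strand: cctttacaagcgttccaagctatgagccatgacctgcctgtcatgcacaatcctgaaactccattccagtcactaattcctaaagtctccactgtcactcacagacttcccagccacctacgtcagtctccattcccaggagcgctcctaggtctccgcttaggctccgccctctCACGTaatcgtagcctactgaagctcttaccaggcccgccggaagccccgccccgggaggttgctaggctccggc
Bnip3, chr7:138909507-138909756, minus strand: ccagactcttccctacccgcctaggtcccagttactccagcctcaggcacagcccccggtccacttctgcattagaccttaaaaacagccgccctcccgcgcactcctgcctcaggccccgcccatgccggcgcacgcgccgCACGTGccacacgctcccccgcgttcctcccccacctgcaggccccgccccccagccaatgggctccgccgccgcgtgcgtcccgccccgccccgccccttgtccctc
Ulk1, chr5:110810082-110810331, minus strand: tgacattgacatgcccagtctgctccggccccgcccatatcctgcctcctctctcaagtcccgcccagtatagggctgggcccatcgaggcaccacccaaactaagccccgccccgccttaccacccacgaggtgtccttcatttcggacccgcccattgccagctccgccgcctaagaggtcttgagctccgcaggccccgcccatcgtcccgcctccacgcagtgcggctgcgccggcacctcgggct
Atg2b, chr12:105685242-105685491, minus strand: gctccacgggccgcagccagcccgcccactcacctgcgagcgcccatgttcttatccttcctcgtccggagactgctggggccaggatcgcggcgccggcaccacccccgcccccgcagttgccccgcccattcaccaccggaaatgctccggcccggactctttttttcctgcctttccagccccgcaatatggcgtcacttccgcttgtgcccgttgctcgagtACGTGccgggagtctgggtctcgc

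Of these 4, the full CACGTG stood in the Bnip3 window alone, beginning 108 bases before the start site. Searched on both strands over 300 bases (250 before and 50 after the start site), CACGTG was found in 5 of the 31 members with a RefSeq promoter (16.1%), beside 11.1% of the 12469 tested genes with one. The 5 were Atg3, Atg5, Atg7, Atg14 and Bnip3. The longer palindrome TCACGTGA, which contains CACGTG, was found in 1 member, Atg3 (3.23%, beside 1.96%). The shorter ACGTG, which CACGTG contains and which was added after the fold changes were seen, was found in 15 members (48.4%, beside 27.8%). A match in these windows is a run of letters and not a measured binding site.

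**Figure D1:**
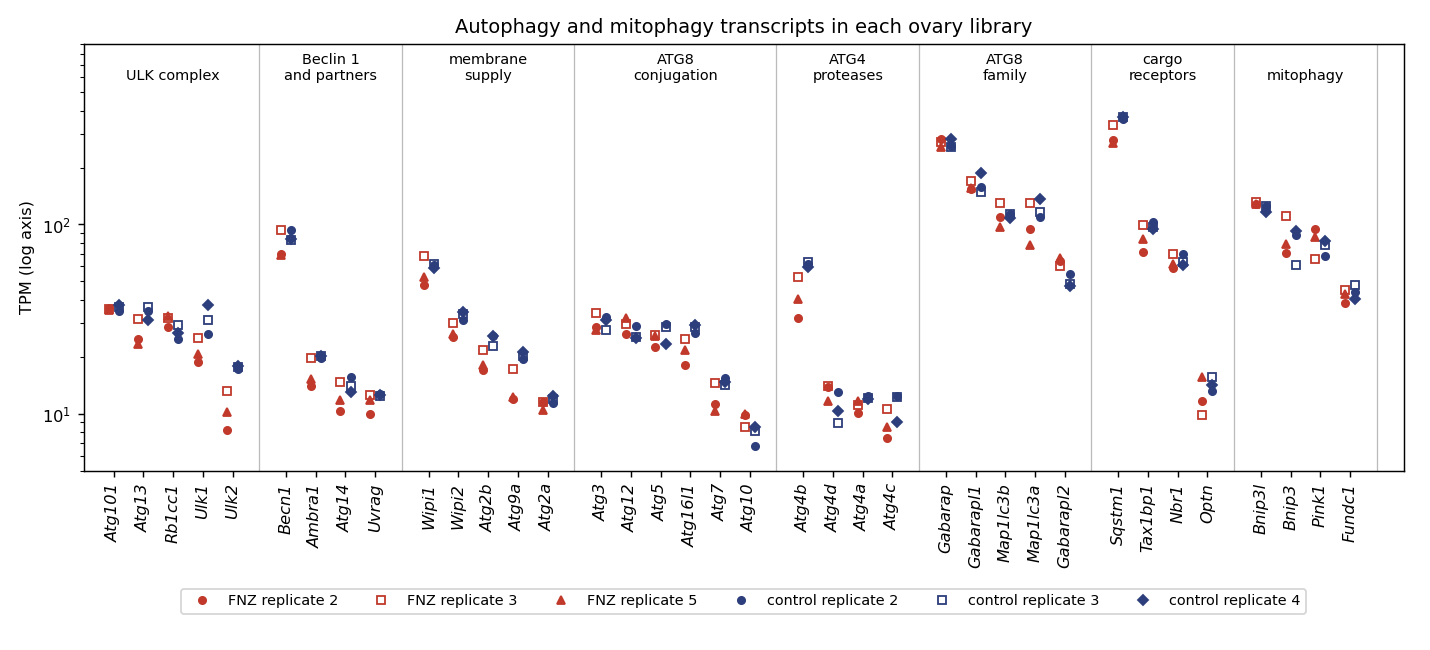
TPM on a log axis for each of the 37 genes, ordered by role and then by level, with 1 point per library (FNZ in red on the left, control in blue on the right of each gene). Sqstm1, Gabarap and Gabarapl1 are the highest, and Atg10, Atg4c, Atg4a and Atg2a lie near the bottom.

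Ordered by mean TPM over all 6 libraries, Sqstm1 was the most abundant member at 331 TPM and Atg10 the least at 8.61 TPM. Gabarap followed at 268 TPM, Gabarapl1 at 162, Bnip3l at 126, and Map1lc3b and Map1lc3a at 112 and 111 TPM. The neighbours Map1lc3b and Map1lc3a did not differ beyond their spread over libraries. The ATG8 family ran from 56.8 TPM for Gabarapl2 to 268 TPM for Gabarap, while the ULK complex lay between 14.0 and 36.1 TPM and the conjugation genes between 8.61 and 30.3 TPM. Becn1 at 82.2 TPM, Pink1 at 78.8 and Wipi1 at 58.5 were above Gabarapl2.

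In the ULK complex, both kinases were lower in FNZ ovaries and the other subunits lay on either side of 0. Ulk1, the kinase whose activity is controlled by mTORC1 and AMPK, measured 60.3, 73.0 and 64.7 CPM in FNZ replicates 2, 3 and 5, against 82.5, 90.0 and 101 CPM in control replicates 2, 3 and 4. Its paralog Ulk2 measured 40.8, 53.9 and 46.9 CPM in FNZ ovaries, against 65.2, 62.8 and 59.7 CPM in control ovaries. All FNZ libraries of both kinases lay below all control libraries, with FNZ replicate 3 the nearest to them.

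The log2 fold change of Ulk1 was -0.46 ± 0.11 (SE; edgeR adjusted p = 0.131, DESeq2 adjusted p = 0.0185). For Ulk2 it was -0.41 ± 0.12 (edgeR adjusted p = 0.136, DESeq2 adjusted p = 0.0527). Without FNZ replicate 3, edgeR called both lower (adjusted p = 0.0193 each, log2 fold changes -0.54 and -0.52). With the length correction the log2 fold changes were -0.38 for Ulk1 and -0.19 for Ulk2, and edgeR adjusted p-values were 0.193 and 0.4. Atg101, which stabilizes ATG13 in the complex, measured 33.8, 26.5 and 30.1 CPM in FNZ ovaries, against 25.1, 26.1 and 26.3 CPM in control ovaries (log2 fold change 0.22 ± 0.12, edgeR adjusted p = 0.309). Its FNZ libraries lay above the controls, FNZ replicate 3 by a narrow margin, and with the length correction its log2 fold change was 0.037 (edgeR adjusted p = 0.895). Atg13, the adaptor, and Rb1cc1, the scaffold FIP200, had log2 fold changes of -0.16 and 0.02, and their groups overlapped. Across the 5 genes the median was -0.16.

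The Beclin 1 group stayed within 0.16 of 0 on the log2 scale, with a median of -0.0043 over 4 genes. Becn1, the core of the lipid kinase complex, measured 107, 109.7 and 105 CPM in FNZ ovaries, against 95.4, 96.4 and 96.5 CPM in control ovaries. These groups did not overlap, but the difference was small (log2 fold change 0.16 ± 0.08, edgeR adjusted p = 0.285; 0.30 with the length correction). Ambra1, which couples Beclin 1 to the ULK complex, measured 58.7, 69.2 and 60.3 CPM in FNZ ovaries, against 64.8, 67.8 and 65.0 CPM in control ovaries. Uvrag, the subunit of the endosomal form of the complex, measured 34.9, 44.9 and 43.1 CPM in FNZ ovaries, against 42.9, 40.9 and 41.6 CPM in control ovaries. Their log2 fold changes were -0.07 ± 0.10 and -0.03 ± 0.12 (edgeR adjusted p = 0.691 and 0.903), with FNZ replicate 3 the highest FNZ library for both and overlapping groups. The length correction turned both signs, to 0.12 for Ambra1 and 0.16 for Uvrag. Atg14, the autophagy-specific subunit, had a log2 fold change of 0.02.

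Among the genes that supply membrane, Atg2b stood apart in CPM, but not in TPM (given below). Atg2b, a channel that moves lipids from the endoplasmic reticulum into the growing sheet, measured 43.7, 60.5 and 50.8 CPM in FNZ ovaries, against 74.6, 72.5 and 79.6 CPM in control ovaries. Every FNZ library lay below every control library, and FNZ replicate 3 again lay nearest. The log2 fold change was -0.55 ± 0.13 (edgeR adjusted p = 0.131, DESeq2 adjusted p = 0.0138). It was -0.68 without FNZ replicate 3 (edgeR adjusted p = 0.0113) and -0.27 with the length correction (edgeR adjusted p = 0.232). With a listed length of 7546 bases, Atg2b is among the longest members.

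Its paralog Atg2a, of 6371 bases, measured 52.2, 45.9 and 47.9 CPM in FNZ ovaries, against 45.9, 47.5 and 44.4 CPM in control ovaries (log2 fold change 0.08 ± 0.09, edgeR adjusted p = 0.622). Its groups overlapped, and with the length correction the log2 fold change was 0.34 (edgeR adjusted p = 0.269). The ratio of Atg2b to Atg2a TPM was 1.48, 1.89 and 1.72 in FNZ replicates 2, 3 and 5, against 2.25, 1.93 and 2.07 in control replicates 2, 3 and 4, so Atg2b was the more abundant paralog in every library. Atg9a, the scramblase that seeds the sheet, measured 38.0, 44.4 and 35.4 CPM in FNZ ovaries, against 45.4, 45.9 and 46.5 CPM in control ovaries (log2 fold change -0.23 ± 0.11, edgeR adjusted p = 0.266). Its groups did not overlap, with FNZ replicate 3 close below the controls, and the length-corrected value was -0.094 (edgeR adjusted p = 0.687). Exons of Atg9a overlap the transcript Gm29253 on the same strand, so its counts are uncertain. The lipid readers Wipi1 and Wipi2 had log2 fold changes of 0.01 and -0.03.

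**Figure D2:**
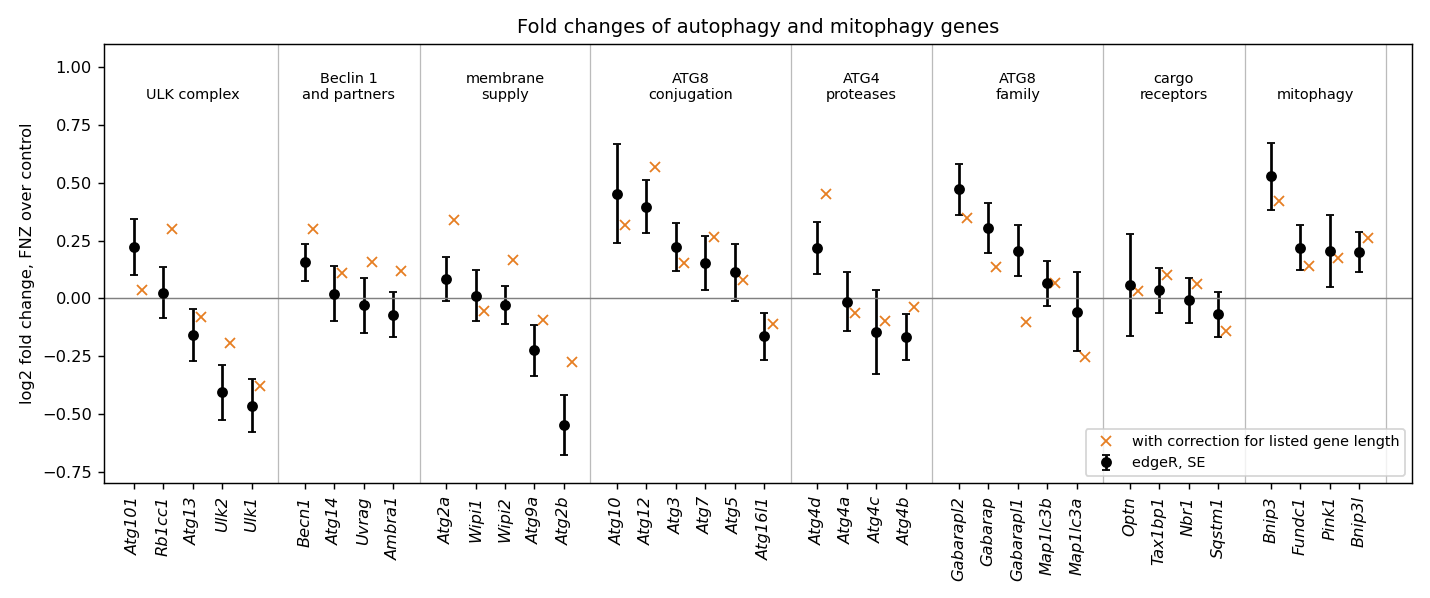
Log2 fold change of FNZ over control from edgeR with its SE (black) for the 37 genes by role, and the value with a correction for listed length (orange crosses). The mitophagy genes lie above 0 and Ulk1, Ulk2 and Atg2b lie lowest, and the crosses of the long genes Atg2b and Ulk2 lie nearer to 0.

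In the conjugation system, 5 of 6 genes had positive log2 fold changes and the median was 0.19. Atg12, the ubiquitin-like partner of ATG5, measured 104, 94.9 and 119 CPM in FNZ ovaries, against 87.7, 78.0 and 75.2 CPM in control ovaries. The FNZ libraries were all higher. Its log2 fold change was 0.40 ± 0.12 (edgeR adjusted p = 0.136, DESeq2 adjusted p = 0.0671). Atg12 is long for a gene on the higher side, at 4765 bases, and the length correction moved it to 0.57 (edgeR adjusted p = 0.192). Under this correction DESeq2 called it higher (adjusted p = 0.0176), as did edgeR with FNZ replicate 3 left out (adjusted p = 0.0298 without the correction and 0.0356 with it).

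Atg3, the enzyme that transfers ATG8 proteins to lipid, measured 47.4, 45.3 and 42.2 CPM in FNZ ovaries, against 41.1, 35.3 and 39.2 CPM in control ovaries. All FNZ libraries exceeded the controls by a small margin (log2 fold change 0.22 ± 0.10, edgeR adjusted p = 0.247). Atg10, the enzyme that joins ATG12 to ATG5, measured 9.89, 7.19 and 9.66 CPM in FNZ ovaries, against 5.40, 6.75 and 7.36 CPM in control ovaries. FNZ replicate 3 lay inside the control range, and the log2 fold change of 0.45 ± 0.22 had an edgeR adjusted p of 0.251. Atg7, the activating enzyme, and Atg5 had log2 fold changes of 0.15 and 0.11 with overlapping groups. Atg16l1, which directs the complex to membrane, was the exception at -0.16 (edgeR adjusted p = 0.366), with all FNZ libraries below the controls.

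The ATG4 proteases, which trim ATG8 proteins and later release them from lipid, had log2 fold changes from -0.17 to 0.22. Atg4d measured 24.1, 22.3 and 21.7 CPM in FNZ ovaries, against 20.0, 19.8 and 18.9 CPM in control ovaries. Its FNZ libraries were all higher (log2 fold change 0.22 ± 0.11, edgeR adjusted p = 0.284; 0.45 with the length correction). Atg4b, the most active of the 4 in mammalian cells, measured 67.2, 72.0 and 66.8 CPM in FNZ ovaries, against 69.5, 82.0 and 79.8 CPM in control ovaries (log2 fold change -0.17 ± 0.10, edgeR adjusted p = 0.34). Atg4c measured 16.3, 20.7 and 18.6 CPM in FNZ ovaries, against 23.1, 22.8 and 15.7 CPM in control ovaries (log2 fold change -0.14 ± 0.18, edgeR adjusted p = 0.661). The groups of both overlapped, and with the length correction the values were -0.037 for Atg4b and -0.096 for Atg4c. Atg4a had a log2 fold change of -0.01.

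On the TPM scale the shares of Atg4d and Atg4b in this family differed between groups. Atg4d made up 21.9%, 15.8% and 16.1% of the summed ATG4 TPM in FNZ replicates 2, 3 and 5, against 13.1%, 9.27% and 11.4% in control replicates 2, 3 and 4. Atg4b made up 50.4%, 59.7% and 56.1% in FNZ ovaries, against 62.0%, 65.6% and 65.6% in control ovaries. The groups did not overlap for either share. In TPM, Atg4d overlapped between groups, at 13.1 ± 1.30 in FNZ ovaries and 10.8 ± 2.09 in control ovaries (SD, n = 3 each). Atg4b was lower in every FNZ library, at 41.7 ± 10.5 TPM in FNZ ovaries and 61.6 ± 1.93 TPM in control ovaries. Both shares are parts of the same sum, so they are not separate results. The sum of the 4 proteases was 74.6 ± 12.7 TPM in FNZ ovaries and 95.7 ± 4.39 TPM in control ovaries (SD, n = 3 each). On a log2 TPM scale the median fold change of all genes was itself -0.18. These shares rest on estimated transcript lengths as well as counts. The length implied by count over TPM, explained below, had log2 differences of -0.33 for Atg4d and 0.18 for Atg4b, with overlapping groups. Exons of Atg4d overlap Kri1 on the opposite strand.

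In the ATG8 family, 4 of 5 genes were above 0 and the median log2 fold change was 0.21. Gabarapl2, also called GATE-16, measured 64.5, 58.4 and 57.2 CPM in FNZ ovaries, against 47.0, 44.2 and 38.7 CPM in control ovaries. The groups were well separated. Its log2 fold change was 0.47 ± 0.11 (a 1.39-fold higher level, edgeR adjusted p = 0.131, DESeq2 adjusted p = 0.0249), and the higher level also held in TPM, at 63.7 ± 3.05 in FNZ ovaries and 49.9 ± 3.93 in control ovaries (SD, n = 3 each). With the length correction it was 0.35 (edgeR adjusted p = 0.219). Without FNZ replicate 3 edgeR called it higher (adjusted p = 0.0342).

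Gabarap measured 252, 205 and 222 CPM in FNZ ovaries, against 182, 176 and 191 CPM in control ovaries. Each FNZ library exceeded each control library (log2 fold change 0.31 ± 0.11, edgeR adjusted p = 0.166), and edgeR called it higher without FNZ replicate 3 (adjusted p = 0.0411). At 1351 listed bases it is short, and its log2 fold change was 0.13 with the correction for length. Gabarapl1 measured 220.4, 188 and 205 CPM in FNZ ovaries, against 173, 164 and 194 CPM in control ovaries (log2 fold change 0.21 ± 0.11, edgeR adjusted p = 0.302), and FNZ replicate 3 lay inside the control range. With the length correction its sign turned, to -0.10.

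The LC3 genes, whose proteins are the usual markers of autophagosomes, stayed near control levels. Map1lc3b measured 162, 173 and 149 CPM in FNZ ovaries, against 161, 156 and 146 CPM in control ovaries (log2 fold change 0.06 ± 0.10, edgeR adjusted p = 0.721). Map1lc3a measured 67.6, 73.5 and 47.7 CPM in FNZ ovaries, against 57.8, 64.9 and 73.7 CPM in control ovaries (log2 fold change -0.06 ± 0.17, edgeR adjusted p = 0.869), with FNZ replicate 5 the lowest of all libraries, and had -0.25 with the length correction. In TPM, Gabarapl2 made up 9.15%, 7.91% and 10.2% of the family in FNZ replicates 2, 3 and 5, against 7.85%, 7.08% and 6.16% in control replicates 2, 3 and 4. The groups did not overlap for this share, although FNZ replicate 3 and control replicate 2 nearly met. The family summed to 707 ± 55.0 TPM in FNZ ovaries and 713 ± 44.0 TPM in control ovaries (SD, n = 3 each), a difference within the spread between libraries.

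**Figure D3:**
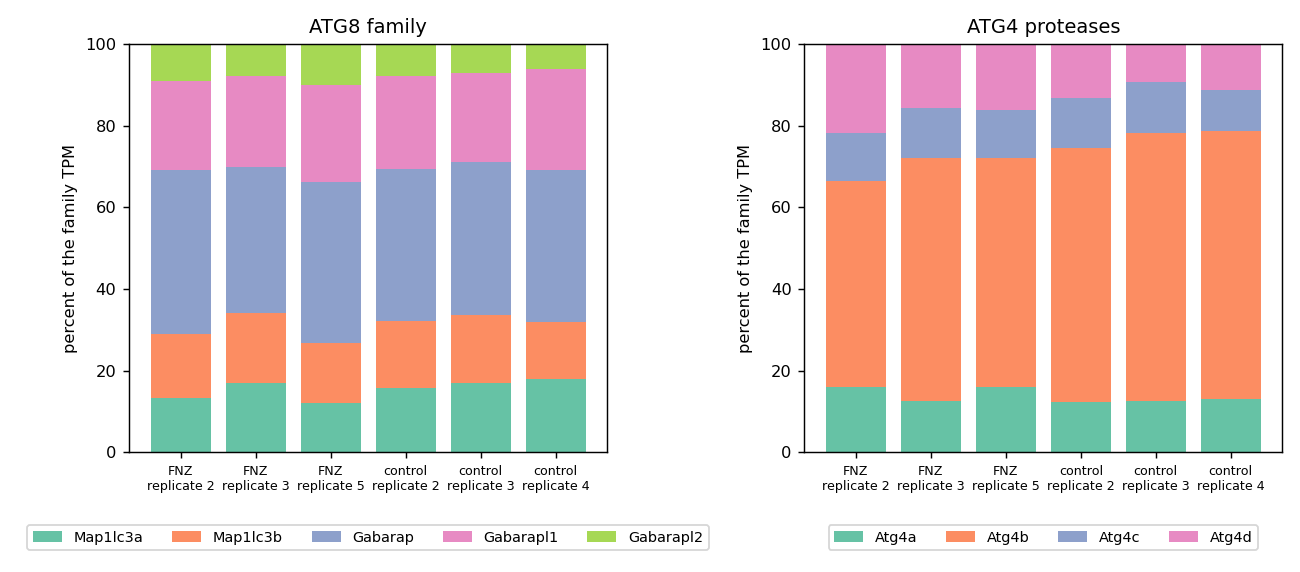
Share of each gene in the summed TPM of the ATG8 family (left) and of the ATG4 proteases (right), with 1 bar per library and FNZ libraries left of the control libraries. Gabarap makes up the greatest part of the first family in each library (35.9% to 40.0% in FNZ and 37.2% to 37.4% in control libraries), and Atg4d takes a greater share of the second in each FNZ library.

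The cargo receptors showed the smallest differences, from -0.07 to 0.06 on the log2 scale. Sqstm1, which encodes p62, measured 444, 442 and 402 CPM in FNZ ovaries, against 440.0, 460.0 and 451 CPM in control ovaries (log2 fold change -0.07 ± 0.10, edgeR adjusted p = 0.704). Tax1bp1 measured 197, 223 and 214 CPM in FNZ ovaries, against 218, 203 and 198 CPM in control ovaries (log2 fold change 0.03 ± 0.10, edgeR adjusted p = 0.857). Optn, a receptor recruited to damaged mitochondria, measured 24.7, 16.1 and 29.8 CPM in FNZ ovaries, against 20.4, 25.1 and 22.3 CPM in control ovaries (log2 fold change 0.06 ± 0.22, edgeR adjusted p = 0.898). Its FNZ libraries were both the highest and the lowest of the 6. With the length correction the values were -0.14 for Sqstm1, 0.10 for Tax1bp1 and 0.030 for Optn. Nbr1 had a log2 fold change of -0.01. Because p62 is itself degraded by autophagy, its protein is often read beside its transcript, and protein was not analysed here.

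All 4 mitophagy genes had positive log2 fold changes, with a median of 0.21. Bnip3, an outer membrane receptor that binds LC3, measured 89.7, 93.1 and 84.0 CPM in FNZ ovaries, against 69.0, 48.2 and 67.9 CPM in control ovaries. The groups were separate, and control replicate 3 lay far below the other controls. The log2 fold change was 0.53 ± 0.15 (1.44-fold, edgeR adjusted p = 0.133, DESeq2 adjusted p = 0.0415). It ranged from 0.38 to 0.61 when each library was left out in turn, and was 0.42 with the length correction (edgeR adjusted p = 0.226).

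Bnip3l, which encodes the related receptor NIX, measured 184, 173 and 179.6 CPM in FNZ ovaries, against 159.5, 155 and 153 CPM in control ovaries. Fundc1, another outer membrane receptor, measured 56.6, 55.9 and 60.0 CPM in FNZ ovaries, against 50.1, 52.8 and 45.3 CPM in control ovaries. Neither pair of groups overlapped, and both differences were small. The log2 fold changes were 0.20 ± 0.09 and 0.22 ± 0.10 (edgeR adjusted p = 0.219 and 0.221), and that of Fundc1 was 0.14 with the length correction. Pink1, the kinase that accumulates on depolarized mitochondria, measured 149, 100.3 and 134 CPM in FNZ ovaries, against 99.0, 116 and 118 CPM in control ovaries. Its exons overlap a small RNA gene, Mir7019, on the same strand. FNZ replicate 3 lay among the controls while the other FNZ libraries lay above them (log2 fold change 0.20 ± 0.16, edgeR adjusted p = 0.458).

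Counted over all roles, the CPM of 10 members (27.0%) lay higher in every FNZ library than in every control library, and that of 5 members (13.5%) lay lower, beside 15.8% and 13.8% of all tested genes. On the higher side were Atg101, Becn1, Atg12, Atg3, Atg4d, Gabarap, Gabarapl2, Bnip3, Bnip3l and Fundc1. On the lower side were Ulk1, Ulk2, Atg2b, Atg9a and Atg16l1. Without FNZ replicate 3, edgeR called 3 members higher (Atg12, Gabarap and Gabarapl2) and 3 lower (Ulk1, Ulk2 and Atg2b), 8.11% each, beside 7.99% and 9.64% of all genes. With the correction for listed gene length, edgeR called 0 members, beside 0.00564% of genes in each direction. DESeq2 with this correction called Atg12 higher and Ulk1 lower (adjusted p = 0.0176 and 0.0483), beside 2.47% and 1.48% of genes. With both the correction and FNZ replicate 3 left out, edgeR called Atg12 higher and 0 members lower, beside 1.59% and 1.77% of genes.

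Gene length ran through these values as it did through the whole table. Across the 37 genes, which share the same libraries and are not replicates, the log2 fold change had a Spearman correlation with listed length of -0.46, beside -0.42 over all 17735 tested genes. Of the 8 members under 2000 bases, 7 had a positive log2 fold change, as did 73.6% of all tested genes under that length. Of the 8 members over 5000 bases, 5 had a negative one, beside 79.3% of all tested genes over that length. Members above 0 had a median listed length of 2393 bases and those below 0 of 3604 bases. The part of length in each single difference was not tested apart from the correction given above.

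**Figure D4:**
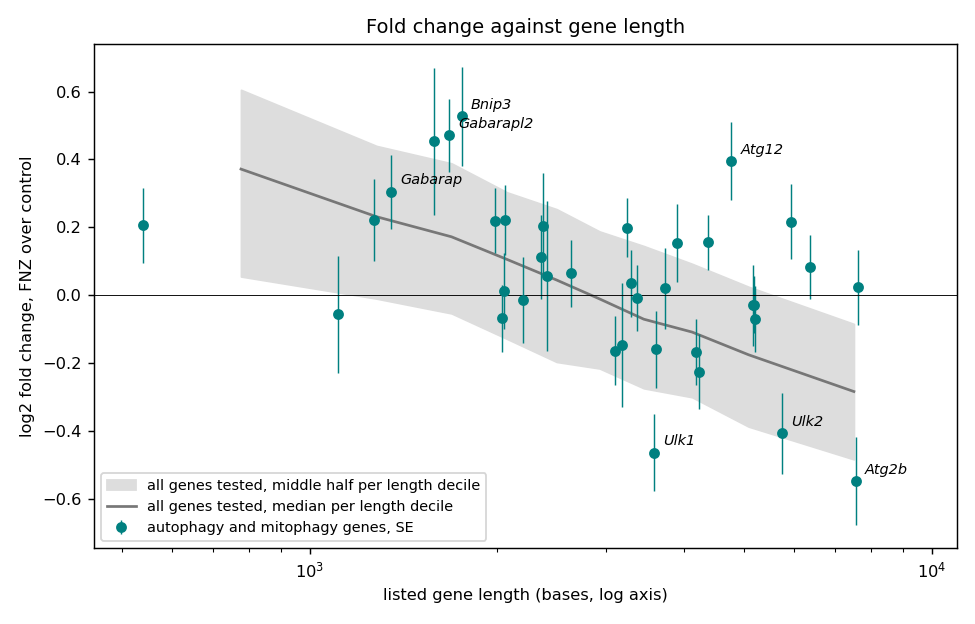
Log2 fold change of FNZ over control with its SE against listed gene length on a log axis for the 37 genes (green), over the median (line) and interquartile range (grey) of all tested genes in each length decile. The members with an unadjusted edgeR p under 0.05 are named. The median of all genes is 0.37 for the shortest genes and -0.28 for the longest, and of the named genes Gabarapl2, Bnip3 and Atg12 lie above the grey band and Ulk1 and Atg2b below it.

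The length that the authors' program assigned to each gene could itself be read from the table. TPM divides a count by the effective length of the gene's transcripts in that library, so the ratio of a count to a TPM returns that length up to a factor per library. The factor was set here from 424 genes with a single annotated transcript of at least 3000 bases. Over 1061 genes with a single transcript, the log2 difference in implied length between FNZ and control libraries had an interquartile range of -0.0032 to -6.9e-05. The 424 genes that set the factor are among them, so a difference near 0 is partly built in. Over 10470 genes with several transcripts it was -0.04 to 0.04. An implied length can be read as that of the mix of transcripts that the program estimated, and the table does not name those transcripts.

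Of the 37 members, 17 differed by less than 0.05 on the log2 scale. In 2 (5.41%) the implied length was greater in all FNZ libraries and in 6 (16.2%) smaller, beside 10% and 11% of all genes with several transcripts. Atg2b had implied lengths of 3004, 4002 and 3534 bases in FNZ replicates 2, 3 and 5, against 4419, 4805 and 4777 bases in control replicates 2, 3 and 4 (log2 difference -0.42). For Rb1cc1 they were 2430, 3160 and 2575 bases in FNZ ovaries, against 4266, 3430 and 3384 bases in control ovaries (-0.44), although its total count barely differed. Both genes gave shorter values in every FNZ library, and FNZ replicate 3 lay nearest to the controls.

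Bnip3 went the other way, with 1495, 1200 and 1339 bases in FNZ ovaries, against 1196, 1196 and 1140 bases in control ovaries (log2 difference 0.19). In TPM its groups overlapped, at 86.8 ± 21.6 TPM in FNZ ovaries and 80.2 ± 16.7 TPM in control ovaries (SD, n = 3 each). Relative to the shift of all genes on the TPM scale, its log2 fold change was 0.28, and with the correction on implied length it was 0.38. Nbr1, Map1lc3b, Pink1 and Wipi1 also had shorter implied lengths in all FNZ libraries (log2 differences -0.23, -0.19, -0.16 and -0.12), and Atg9a longer ones (0.09). Of the 8 genes, Map1lc3b and Atg9a were those in which FNZ replicate 3 was not the FNZ library nearest to the controls.

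**Figure D5:**
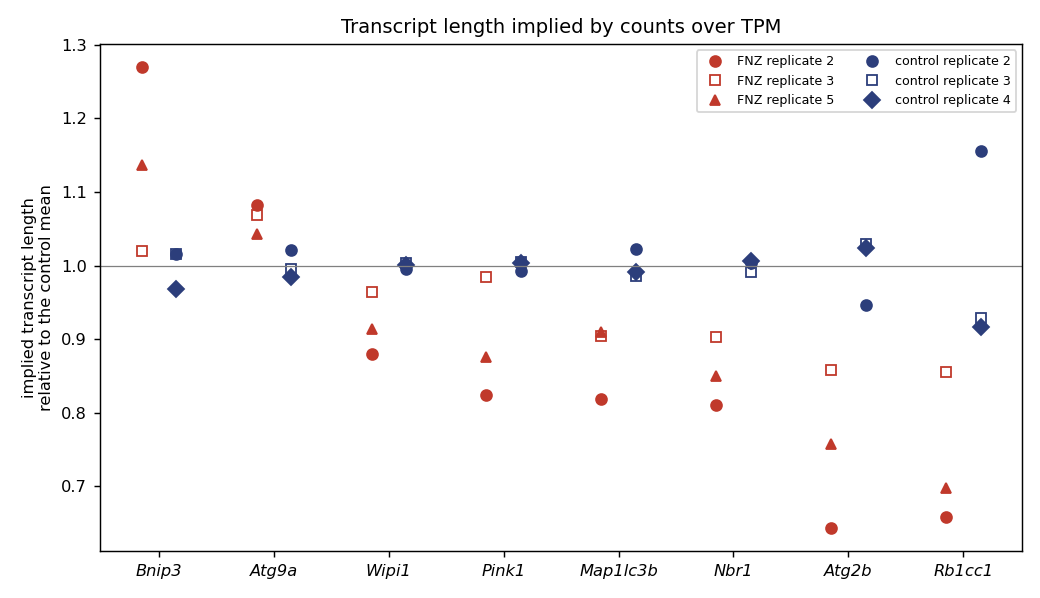
Implied transcript length in each library, as a ratio to the mean of the control libraries, for the 8 members whose groups did not overlap. FNZ libraries (red, left) lie below the control libraries (blue, right) for 6 genes and above them for Bnip3 and Atg9a.

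The listed length was often not the implied one. Gabarapl1 is listed at 539 bases but had implied lengths of 1594 to 1680 bases in FNZ libraries and 1595 to 1667 bases in control libraries. The mean implied length of Becn1, Rb1cc1 and Atg4d was 0.400, 0.422 and 0.425 of the listed one. With implied in place of listed length in the correction, a choice made after seeing the data, the log2 fold change of Gabarapl1 was 0.11 and not -0.10. That of Becn1 was 0.08 and not 0.30, and that of Rb1cc1 was 0.12 and not 0.30. For Atg4d it was 0.26 and not 0.45.

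TPM also shifted as a whole. On log2(TPM + 1), limma gave a median fold change of -0.18 over all tested genes and of -0.13 over the 37 members, and 0 members were called. Relative to the shift of all genes, the log2 fold change on this scale was -0.53 for Ulk2, -0.41 for Atg4b, -0.36 for Ulk1 and for Atg9a, and 0.52 for Gabarapl2, 0.45 for Atg4d, 0.43 for Atg10 and 0.38 for Rb1cc1. For Sqstm1, whose TPM was 295 ± 36.3 in FNZ ovaries and 367 ± 5.45 in control ovaries (SD, n = 3 each) without overlap, it was -0.15. For Atg2b it was -0.20, smaller in size than for Atg9a, and the TPM groups of Atg2b did not overlap.

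Of 31 further autophagy genes on a list beside the members, edgeR called 0 in either direction, with a median log2 fold change of -0.05. At an unadjusted p under 0.05 edgeR had 5 higher and 6 lower, beside 12% and 11.2% of all tested genes. DESeq2 called 2 higher and 1 lower, beside 4.54% and 5.57%. With FNZ replicate 3 left out, edgeR called 7 of the 31 higher and 5 lower, beside 7.99% and 9.64% of all genes. The list holds the lipid kinase, fusion factors, further mitophagy genes and the TFEB family, and it was compiled with earlier results of these data known. Atg16l2, a relative of Atg16l1, measured 27.0, 20.4 and 24.4 CPM in FNZ ovaries, against 16.3, 15.3 and 15.2 CPM in control ovaries (log2 fold change 0.61 ± 0.14, edgeR adjusted p = 0.131, DESeq2 adjusted p = 0.0151). Wdr45, which encodes a further WIPI protein, measured 41.3, 31.0 and 36.5 CPM in FNZ ovaries, against 25.9, 24.3 and 24.5 CPM in control ovaries. Its log2 fold change was 0.54 ± 0.13 (edgeR adjusted p = 0.131, DESeq2 adjusted p = 0.0219). Both were higher in every FNZ library, as was Calcoco1, a receptor for the endoplasmic reticulum (log2 fold change 0.30 ± 0.10, edgeR adjusted p = 0.153). Atg16l2, Wdr45 and Calcoco1 were called higher by edgeR without FNZ replicate 3 (adjusted p = 0.0160, 0.0158 and 0.0294).

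Bcl2l13, a mitophagy receptor, measured 59.9, 86.3 and 71.4 CPM in FNZ ovaries, against 109, 107 and 111 CPM in control ovaries. It was lower in every FNZ library (log2 fold change -0.59 ± 0.14, edgeR adjusted p = 0.131, DESeq2 adjusted p = 0.00981), opposite in sign to the 4 mitophagy members, and -0.34 with the correction for length. Wdr45b, a close relative of Wdr45, and Plekhm1, an adaptor for lysosome fusion, were also lower in FNZ ovaries, by log2 fold changes -0.32 ± 0.10 (edgeR adjusted p = 0.138) and -0.30 ± 0.10 (edgeR adjusted p = 0.145). The value of Plekhm1 was -0.070 with the length correction (edgeR adjusted p = 0.773) and -0.011 on implied length. Bcl2l13 and Wdr45b were called lower by edgeR without FNZ replicate 3 (adjusted p = 0.0110 and 0.0329), and Plekhm1 was not (adjusted p = 0.0575). The transcription factors Tfeb, Tfe3 and Mitf had -0.02, -0.12 and -0.15 (edgeR adjusted p = 0.958, 0.476 and 0.674).

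Of the marker lists, all genes were detected in at least 1 library. Granulosa markers (10 genes) summed to between 4561 and 5619 TPM in FNZ libraries, with FNZ replicate 3 the highest, and between 4803 and 4936 TPM in control libraries. Macrophage markers (10 genes) summed to between 251 and 391 TPM in FNZ libraries and between 321 and 565 TPM in control libraries. Oocyte markers (10 genes) ran from 385 to 709 TPM in FNZ libraries and from 433 to 703 TPM in control libraries. Theca or luteal markers (9 genes) summed to 5089 TPM in FNZ replicate 3, against 3148 and 3452 TPM in the other FNZ libraries and 3106 to 3591 TPM in control libraries. Endothelial (7 genes) and stromal markers (7) overlapped between groups. Adipocyte markers (6 genes) ran from 91.3 to 1420 TPM in FNZ libraries and from 96.6 to 1426 TPM in control libraries, with FNZ replicate 3 at the top of the FNZ range. FNZ replicate 3 also had the highest sums of smooth muscle (5 genes, 2790 TPM, against 1107 to 1483 TPM in the other FNZ libraries and 1460 to 1611 TPM in control libraries) and of blood markers (5 genes, 3787 TPM, against 645 and 1115 TPM in the other FNZ libraries and 1989 to 3735 TPM in control libraries). Oviduct markers (5 genes) reached 379 TPM in control replicate 4, with 3.01 to 18.7 TPM in FNZ libraries and 4.34 to 8.06 TPM in the other control libraries. The part of these cell types in the values above was not tested.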

How the data were processed

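Expected counts per gene and library were deposited by the authors in a single table, with 12.0% to 14.8% of a library's entries fractional. TPM per library was also deposited by the authors, scaled for transcript length and depth. The authors' deposited fold, log2 fold change and p-value columns were not used for any result. The submitters' processing notes name bcl2fastq 2.20, DESeq2 1.38.3 and GRCm39. Which aligner, counter, annotation and strand setting they used is not stated there. Each column was assigned to a group and replicate through its sample's title, and 0 columns of per-sample values were left aside.

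Counts were rounded and tested with edgeR 4.0.16 in R 4.3.3 (TMM, filterByExpr, glmQLFit with robust = TRUE, quasi-likelihood test), and p-values were Benjamini-Hochberg adjusted over all 17735 tested genes, with calls under 0.05. The SE is the size of the log2 fold change divided by the square root of the F statistic of this test. The script was tested on counts simulated with no length trend and no deviating library, so that check did not cover these features of the data. Alternatives were DESeq2 1.42.0, limma 3.58.1 (voom, or a trend on log2(TPM + 1)), RLE and upper quartile scaling, other filters and thresholds, replicate blocks, each library left out, and an offset that removed a loess curve (span 0.3) of log2 CPM against log2 listed length, fitted per library. Of these, the offset on implied length was added after seeing the data. The members and lists were chosen with earlier results of these data known. Per-library values are given for the ATG8 and mitophagy genes and, in each other role, for the 3 genes with the smallest edgeR p, and of the 31 other autophagy genes the 3 with the smallest p in each direction are named. Tfeb, Tfe3 and Mitf were named after their values were seen.

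Annotation came from GENCODE M21 (GRCm38), without mixing its coordinates with GRCm39. Exons of 13 members overlap a gene on the opposite strand and of 2 (Atg9a, Pink1) on the same strand. In 6 members (Atg4a, Atg9a, Bnip3, Bnip3l, Gabarapl2, Rb1cc1) over 10% of the 25-base words occur in another gene. Their closest copies held at most 1.93% of the counts of each pair, but reads could be split differently. Counting error is not given separately, since PCR copies are not independent molecules.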

Additional observations from a re-analysis of the deposited data

How the results depend on the processing

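Against 0 calls by edgeR over all genes, voom called 2, limma on log2(TPM + 1) 1, no filter on low counts 183, the length offset 2, the offset on implied length (chosen after seeing the data) 2, DESeq2 1497, DESeq2 with the length offset 591, and leaving out 1 library between 0 and 3230 (without FNZ replicate 3), or 615 with the length offset as well. RLE and upper quartile scaling, the 1 CPM filter, robust = FALSE and thresholds of 0.01 and 0.1 left 0. Same-numbered FNZ and control libraries had correlations of deviations from their group mean of -0.08 and -0.14 by title number. FNZ replicate 5 and control replicate 4, which share a library number, had -0.32. These few values cannot tell whether the samples were paired. A replicate block by title number gave 24 calls and a block by library number 2, and neither called a member. In the title block FNZ replicate 5 and control replicate 4 each stand alone, so its fold changes rest on replicates 2 and 3 of each group. Of the members, DESeq2 called 4, DESeq2 with the length offset 2, the length offset without FNZ replicate 3 1, and leaving out 1 library between 0 and 6. The same settings called 3, 1, 2 and between 0 and 12 of the 31 other autophagy genes. The 12 were found without FNZ replicate 3 (7 higher and 5 lower, beside 7.99% and 9.64% of all genes). The members' median log2 fold change of 0.03 was 0.079 with upper quartile scaling, -0.13 in TPM, -0.0056 with the title block, 0.10 with the length offset in edgeR, in DESeq2 and without FNZ replicate 3, 0.12 with the implied length, and between -0.0080 and 0.079 with 1 library left out. Of 660 values of the 33 named genes under the alternatives, 29 changed sign. In TPM these were Atg101 (-0.028), Becn1 (-0.17), Atg2a (-0.085), Atg3 (-0.025), Gabarapl1 (-0.044), Tax1bp1 (-0.22), Optn (-0.21) and Fundc1 (-0.059), on a scale where the median of all genes is -0.18. Relative to that median, Tax1bp1 and Optn were below 0 (-0.042 and -0.039) and the other 6 were not (0.0017 to 0.15). With the length offset in edgeR, in DESeq2, without FNZ replicate 3 and on implied length, Ambra1 was at 0.12, 0.12, 0.10 and 0.16 and Uvrag at 0.16, 0.16, 0.14 and 0.20, and with the first 3 of these Gabarapl1 was at -0.10, -0.10 and -0.15. Uvrag was at 0.014 with upper quartile scaling and 0.085 without FNZ replicate 2. With the title block Map1lc3a was at 0.20, Tax1bp1 at -0.0056 and Optn at -0.18. With 1 library left out, Map1lc3a reached 0.11 (FNZ replicate 5) and 0.035 (control replicate 4), Tax1bp1 -0.0097 (FNZ replicate 3), and Optn -0.15 (FNZ replicate 5) and -0.013 (control replicate 2), with 0.27 at its highest (FNZ replicate 3). For these the cause was not tested. With 3 ovaries per group, differences below the spread of these libraries were not detectable.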
